A study of Mus musculus with 15 samples.

Results

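Transcripts of 9 genes of mature, myelin-forming oligodendrocytes (Mbp, Mog, Mag, Mobp, Cnp, Cldn11, Mal, Ermn and Opalin) were examined in naïve mouse brain and in 4 syngeneic brain tumor models. The 9 genes were the rows, of 46679 in the deposited tables, whose Ensembl identifier carried one of these symbols, and each was found once and passed the filter on low counts, as did 17481 genes in all. Bulk RNA sequencing covered 15 samples, with 3 mice in each of 5 groups. The groups were naïve brain without tumor and end-stage tumors of CT2A, GL261, 005 and Mut3 cells. All were C57BL/6 mice recorded as 6 to 8 weeks old, which for the tumor groups is the age at implantation. In the study CT2A reached end stage soonest and Mut3 latest, so age at harvest cannot be told apart from line. For CT2A, GL261 and 005, 100000 cells were implanted, and for Mut3, 500000. All 4 lines carried a GFP and firefly luciferase marker. CT2A (wild-type p53) and GL261 (K-ras and p53 mutant) are lines from carcinogen-induced tumors, 005 carries activated H-ras and AKT on a p53+/- background, and Mut3 lacks NF1 and p53 function. Each model is thus a single line grown in several mice, and the excised tissue held tumor cells with whatever brain was taken along. In such bulk tissue, fewer oligodendrocytes and less RNA per oligodendrocyte cannot be told apart.

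Oligodendrocytes wrap axons of the central nervous system in a compacted membrane sheath, myelin. Mbp encodes a basic protein that holds the inner faces of the membrane together, and Mobp encodes a smaller basic protein of compact myelin. Mog and Mag encode immunoglobulin-like proteins, Mog of the outer myelin surface and Mag of the membrane facing the axon. Cnp encodes a phosphodiesterase of the uncompacted cytoplasmic channels and is switched on earlier in the lineage than most of the others. Cldn11 encodes the claudin of myelin's tight junctions, Mal a proteolipid of lipid-rich membranes, Ermn a cytoskeletal protein and Opalin a membrane glycoprotein of mature oligodendrocytes. In the lineage, precursors marked by Pdgfra and Cspg4 pass through a committed stage marked by Gpr17 before these genes are fully expressed, under transcription factors that include Olig2, Sox10 and Myrf.

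In the GRCm38 build (GENCODE M21 annotation) the genes lie apart from each other, all annotated as protein coding. Mog lies at chr17:37010743-37023398, Mag at chr7:30899176-30914873, Mobp at chr9:120149707-120181484, Cnp at chr11:100574904-100591729, Cldn11 at chr3:31149920-31164324, Mal at chr2:127633226-127656695, Ermn at chr2:58045113-58052864 and Opalin at chr19:41061710-41077113. Cnp overlaps Dnajc7, and Ermn overlaps Galnt5, on the opposite strand, and Mobp overlaps the transcript Gm38642 on its own strand. Whether the counting used strand is not given in the sources used here, so reads of these neighbors may not have been told apart.

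The promoters of 4 of the genes are shown because their transcripts parted most in Mut3 tumors, where Cnp was high and Mobp, Cldn11 and Ermn were low. Each is the 250 bases before the RefSeq start site in GRCm38.p6, read 5′ to 3′ on the gene's strand, at chr11:100574689-100574938 (plus strand) for Cnp, chr9:120149492-120149741 (plus) for Mobp, chr3:31149670-31149919 (plus) for Cldn11 and chr2:58052865-58053114 (minus) for Ermn. Capitals mark matches, on either strand, to the letters ACAANG (Sox proteins), CTGGNAC (Myrf) and CAGNTG (an E-box, read by Olig proteins among others).
Cnp: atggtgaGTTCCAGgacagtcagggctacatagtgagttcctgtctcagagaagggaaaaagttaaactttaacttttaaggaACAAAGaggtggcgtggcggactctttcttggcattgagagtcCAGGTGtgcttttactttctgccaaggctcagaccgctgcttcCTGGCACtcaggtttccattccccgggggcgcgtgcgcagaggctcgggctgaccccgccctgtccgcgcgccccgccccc
Mobp: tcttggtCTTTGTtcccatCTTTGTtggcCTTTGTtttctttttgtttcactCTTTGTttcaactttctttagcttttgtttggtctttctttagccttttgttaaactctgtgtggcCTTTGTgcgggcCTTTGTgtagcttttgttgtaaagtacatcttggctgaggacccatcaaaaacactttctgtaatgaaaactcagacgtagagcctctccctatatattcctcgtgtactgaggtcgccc
Cldn11: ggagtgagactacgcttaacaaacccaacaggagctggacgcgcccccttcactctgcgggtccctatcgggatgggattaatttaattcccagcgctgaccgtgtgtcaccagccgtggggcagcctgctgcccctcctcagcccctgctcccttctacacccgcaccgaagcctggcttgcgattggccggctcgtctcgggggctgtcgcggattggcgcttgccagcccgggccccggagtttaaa
Ermn: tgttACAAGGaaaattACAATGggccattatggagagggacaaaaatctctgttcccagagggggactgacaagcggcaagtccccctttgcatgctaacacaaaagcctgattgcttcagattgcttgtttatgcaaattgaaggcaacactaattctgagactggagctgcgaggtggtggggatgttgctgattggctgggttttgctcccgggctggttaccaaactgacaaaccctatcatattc
The Cnp window held 1 match to the Sox letters, 2 to the Myrf letters and 1 to the E-box. The Mobp window held 6 matches to the Sox letters, the Ermn window held 2, and neither held the other motifs. These letters were not in the Cldn11 window. Of 32851 RefSeq promoter windows of the same length, 36.3% held the Sox letters, 16.1% the Myrf letters and 44.8% the E-box, so a match is a description of the sequence and not a binding site.

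Total counts were 3105119 to 5161132 in naïve brain and 5380395 to 13130158 in the tumors. Naïve brain expressed the defining neuron, astrocyte and oligodendrocyte genes. One 005 tumor, replicate 3, stood apart from the other 2. Its 10 neuron genes (Snap25, Syt1 and others) summed to 1050 TPM (transcripts scaled to gene length and library size), against 43.2 and 108 in the other 005 tumors and 1510 to 1619 in naïve brain, and Mki67, a proliferation gene, was at 7.90 CPM (counts scaled to library size) against 63.3 and 94.3. Naïve replicate 2 was separated from the other naïve brains by Mbp, at 1489 CPM, and by Ppp1r1b, a gene of striatal neurons, at 188 CPM against 33.3 and 64.6. The other tested striatal genes were closer, Drd1 at 29.9 CPM against 17.1 and 21.1 and Rgs9 at 34.4 against 9.996 and 24.3. That replicate also had the lowest total count, 3105119, and a mitochondrial share of 14.97% against 24.0% and 21.5%. Counts of the 9 genes that rest on these samples are given with and without them.

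Within naïve brain the genes differed widely in level per transcript length. On the TPM scale Mbp was the highest, at 255 ± 276 (SD, n = 3), and Ermn the lowest, at 5.26 ± 1.182. Mobp followed Mbp at 35.3 ± 23.2, then Mal at 28.0 ± 20.3, Cnp at 20.0 ± 20.8 and Mag at 17.2 ± 7.81. Mog (13.1 ± 4.65), Cldn11 (11.4 ± 12.5) and Opalin (9.63 ± 4.00) came next. The spread between brains was as large as most steps in this order, because naïve replicate 2 had 574 TPM of Mbp and the other brains 110 and 81.7, so neighbors from Mobp to Opalin were not separated.

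**Figure D1:**
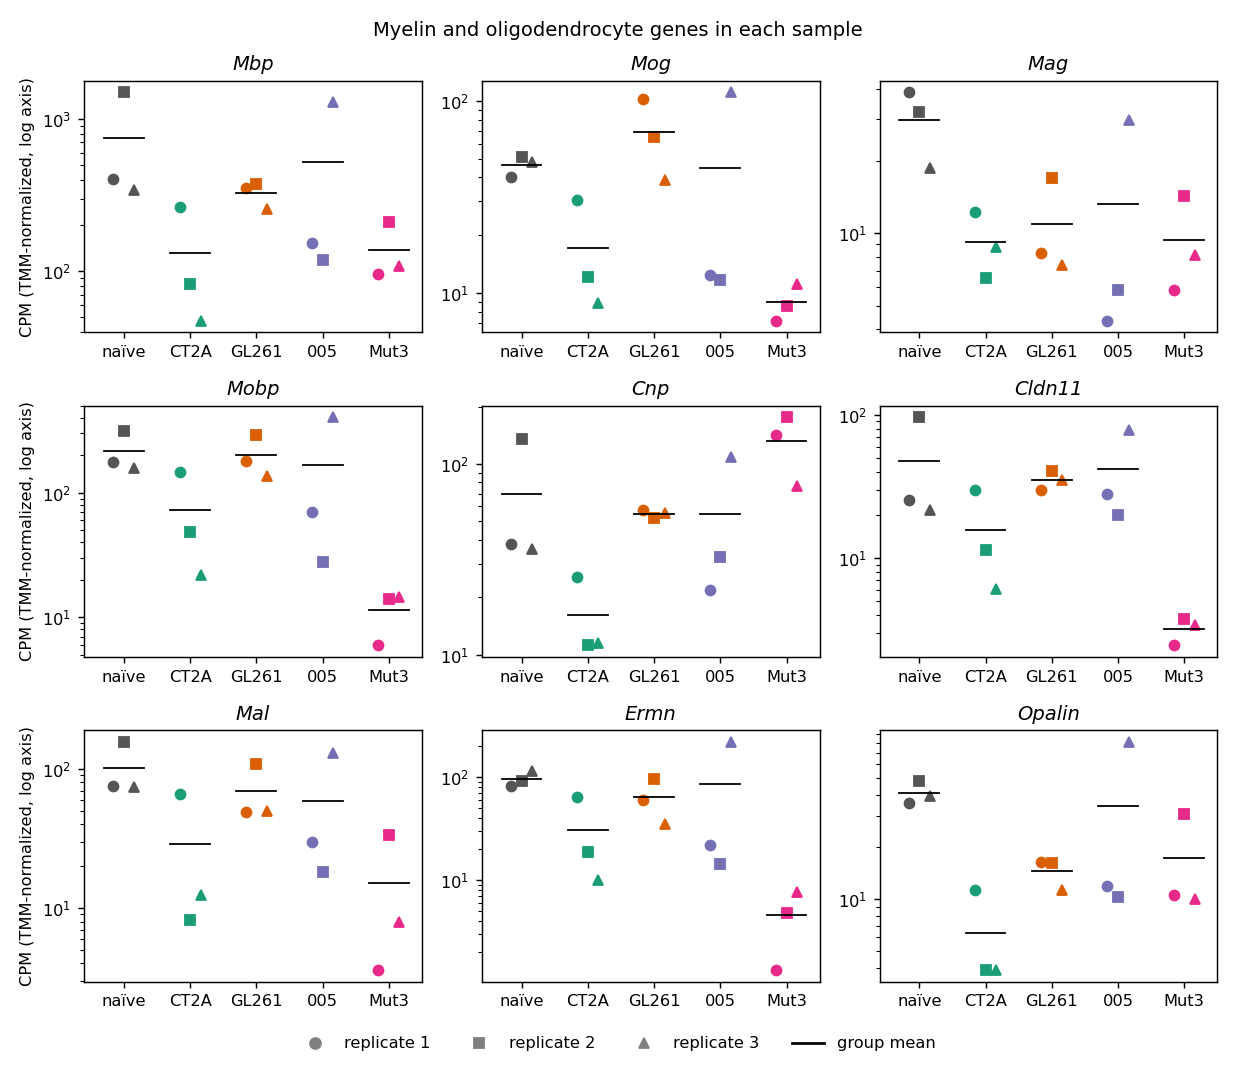
Level of each gene in each of the 15 samples (TMM-normalized CPM, log axis), with 1 marker shape per replicate number and a black line at the group mean (n = 3). Replicate 3 of 005 lies far above the other 005 tumors in all panels, and the Mut3 tumors are lowest for Mobp, Cldn11 and Ermn and high for Cnp.

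Against naïve brain, CT2A tumors had lower Mbp, Mag, Cnp and Opalin. For Mbp, the CT2A tumors had 265, 82.1 and 47.4 CPM and the naïve brains 402, 1489 and 343 CPM. The groups did not overlap, with the highest CT2A tumor, replicate 1, below the lowest naïve brain. The log2 fold change of Mbp was -2.50 ± 0.88 (SE) with an adjusted p of 0.0348 (edgeR's quasi-likelihood test, Benjamini-Hochberg over all genes tested). For Opalin, the CT2A tumors had 11.2, 3.88 and 3.88 CPM and the naïve brains 35.7, 48.1 and 39.2 CPM, a change of -2.69 ± 0.75 (adjusted p = 0.0119). Cnp had 25.5, 11.2 and 11.5 CPM in CT2A and 37.9, 135 and 36.0 CPM in naïve brain, again without overlap (-2.11 ± 0.64, adjusted p = 0.0171). Mag fell by 1.69 ± 0.65 on the log2 scale (adjusted p = 0.0474). Of these 4, Opalin alone was called without naïve replicate 2 (-2.35 ± 0.79, adjusted p = 0.0387). In that fit Mbp was at -1.29 ± 0.84 (adjusted p = 0.248), Cnp at -0.99 ± 0.55 (adjusted p = 0.180) and Mag at -1.43 ± 0.70 (adjusted p = 0.128). Without CT2A replicate 1, the highest of the CT2A tumors for Mbp, the change of Mbp was -3.51 (adjusted p = 0.0160). The other 5 genes had log2 fold changes from -1.43 (Mog) to -1.82 (Mal) and did not pass.

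In all, 4 of the 9 genes were called lower in CT2A, where a call needed an adjusted p under 0.05 and a change of at least 1 on the log2 scale, and 20.2% of all genes tested were called lower. The median change of the 9 was -1.69, against -0.04 over all genes. The count rested on single samples. It was 8 without 005 replicate 3, whose values enter the spread shared by all groups (22.2% of all genes then lower). It was 1 (Opalin) without naïve replicate 2 (12.4%). The count was 2 without GL261 replicate 1 and 0 without CT2A replicate 2 or without CT2A replicate 3. Shares of all genes are not given for these last fits. The 10 neuron genes were all called lower in CT2A as well (median -3.08), with summed levels of 44.5 to 210 TPM; their part in the result was not tested.

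In GL261 tumors none of the 9 genes was called by edgeR, where 7.77% of all genes were called lower and 14.6% higher. An unadjusted p under 0.05 was reached by 1 gene, DESeq2 called 0 and limma on TPM 2. Mog, the outer surface protein, had 102, 65.0 and 38.7 CPM, which overlapped naïve brain at 39.98, 51.3 and 48.1 CPM, and its log2 fold change was 0.56 ± 0.72 (SE). Mobp had 181, 294 and 135 CPM against 177, 315 and 158 CPM in naïve brain. Its change was -0.09 ± 0.80. In TPM, Mobp had 12.8, 26.0 and 13.4 in GL261 against 24.7, 62.0 and 19.3 in naïve brain. The size of the difference from naïve brain thus depended on the scale. Opalin and Mag had the lowest values relative to naïve brain. Opalin was at 16.4, 16.2 and 11.3 CPM in GL261, below each naïve brain, with a change of -1.49 ± 0.72 (adjusted p = 0.133), and Mag changed by -1.45 ± 0.64 (adjusted p = 0.107). Without 005 replicate 3 both were called lower, Mag at -1.53 ± 0.43 (adjusted p = 0.0157) and Opalin at -1.57 ± 0.47 (adjusted p = 0.0206), where 14.9% of all genes were called lower.

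In 005 tumors the result turned on replicate 3. With it, none of the 9 genes was called against naïve brain, where 1.05% of all genes were called lower and 11.6% higher, and log2 fold changes ran from -1.15 (Mag) to -0.04 (Mog). No gene reached an unadjusted p under 0.05, DESeq2 called 0 and limma on TPM 1. For Mog, the 3 tumors had 12.4, 11.7 and 111 CPM, so 2 lay below each naïve brain and replicate 3 above. Ermn had 22.0, 14.4 and 219 CPM against 82.6, 91.2 and 114 CPM in naïve brain, with the same split. Opalin had 11.8, 10.3 and 81.0 CPM.

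Without replicate 3, 6 genes were called lower in 005 (Mbp, Mog, Mag, Mobp, Ermn and Opalin), where 18.1% of all genes were. Mag changed by -2.62 ± 0.53 (adjusted p = 0.00178), Mog by -2.02 ± 0.51 (adjusted p = 0.00684) and Mbp by -2.52 ± 0.74 (adjusted p = 0.0155). The neuron genes moved in the same way, with 0 of 10 called lower in the fit with replicate 3 and 10 of 10 without it. That replicate also had a mitochondrial share of counts of 17.8%, against 4.60% and 6.42% in the other 005 tumors and 14.97% to 24.0% in naïve brain. The part of these features in the result was not tested.

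**Figure D2:**
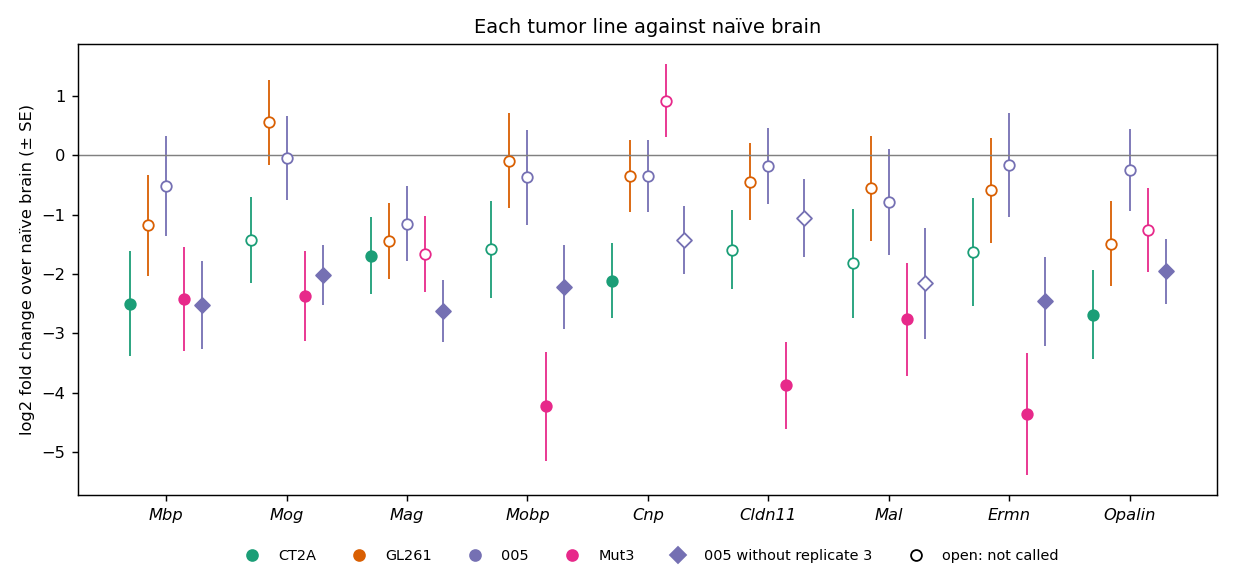
Log2 fold change over naïve brain ± SE for each gene and tumor line (edgeR, n = 3 per group), with filled markers for called genes and diamonds for 005 without replicate 3. Mobp, Cldn11 and Ermn in Mut3 lie between -3.88 and -4.36, and Cnp is the gene of Mut3 above 0, at 0.92, and not called.

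Mut3 tumors had the deepest changes of single genes. The change of Opalin was larger in CT2A (-2.69 against -1.26 in Mut3), and those of Mbp and Mag were about the same in both lines. Mobp, Cldn11 and Ermn were lower than in naïve brain by 3.88 or more on the log2 scale, Mbp, Mog and Mal were lower by smaller amounts, and Cnp was not lower. Mobp had 5.93, 14.1 and 14.5 CPM in Mut3, against at least 158 CPM in each naïve brain (-4.23 ± 0.92, adjusted p = 0.00275). Cldn11, the tight junction claudin, had 2.46, 3.77 and 3.43 CPM against 25.3, 96.2 and 21.6 CPM (-3.88 ± 0.73, adjusted p = 0.00127). Ermn had 1.34, 4.78 and 7.74 CPM against 82.6, 91.2 and 114 CPM (-4.36 ± 1.02, adjusted p = 0.00429). None of these groups overlapped, and each Mut3 tumor was also below each tumor of the other 3 lines for the 3 genes.

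Mbp was at 96.4, 212 and 108 CPM in Mut3 (-2.42 ± 0.88, adjusted p = 0.0402), Mog at 7.16, 8.56 and 11.1 CPM (-2.37 ± 0.76, adjusted p = 0.0220) and Mal at 3.58, 33.6 and 7.92 CPM (-2.77 ± 0.95, adjusted p = 0.0316). All of these Mut3 tumors were below each naïve brain, with replicate 2 the highest for Mbp and Mal. Opalin, at 10.5, 31.1 and 9.94 CPM, changed by -1.26 ± 0.71, and Mag by -1.66 ± 0.64 (adjusted p = 0.0522); neither passed. In contrast, Cnp had 143, 176 and 76.8 CPM in Mut3. Naïve replicate 2, at 135 CPM, lay within that range, while the other naïve brains, at 37.9 and 36.0 CPM, lay below it. The log2 fold change of Cnp was 0.92 ± 0.61 (adjusted p = 0.243), and without naïve replicate 2 it was 2.00 ± 0.60 (adjusted p = 0.0217).

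Thus 6 of the 9 genes were called lower in Mut3, where 19.8% of all genes were, and none was called higher, where 17.9% of all genes were. The median of the 9 was -2.42, against 0.11 over all genes. The count was 8 lower without 005 replicate 3 (20.9% of all genes), and without naïve replicate 2 it was 3 lower (Mobp, Cldn11 and Ermn) and 1 higher (Cnp), where 14.8% and 17.4% of all genes were. In that fit Cldn11 was at -2.68 ± 0.62 (adjusted p = 0.00657), and the calls of Mbp (-1.24 ± 0.84, adjusted p = 0.265), Mog (-2.12 ± 0.81, adjusted p = 0.0581) and Mal (-2.13 ± 1.00, adjusted p = 0.113) were lost. Without Mut3 replicate 1, 3 genes were called, a fit for which the share of all genes is not given here. The 10 neuron genes were all called lower in Mut3 (median -5.73), with summed levels of 8.72 to 32.0 TPM; their part in the result was not tested.

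The make-up of the 9 genes' transcripts, which does not depend on scaling between samples, differed in the same way. Cnp was 28.9% to 48.1% of the summed TPM of the 9 genes in the Mut3 tumors and 4.22% to 12.4% in the other 12 samples. Mobp was 1.20% to 3.29% in Mut3 and at least 6.36% elsewhere. Cldn11 (0.57% to 1.06% in Mut3, at least 2.27% elsewhere) and Ermn (0.10% to 0.64%, at least 0.80% elsewhere) were also separated. Mbp was 38.4% to 48.2% in Mut3, which overlapped the 42.0% to 51.9% of CT2A.

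**Figure D3:**
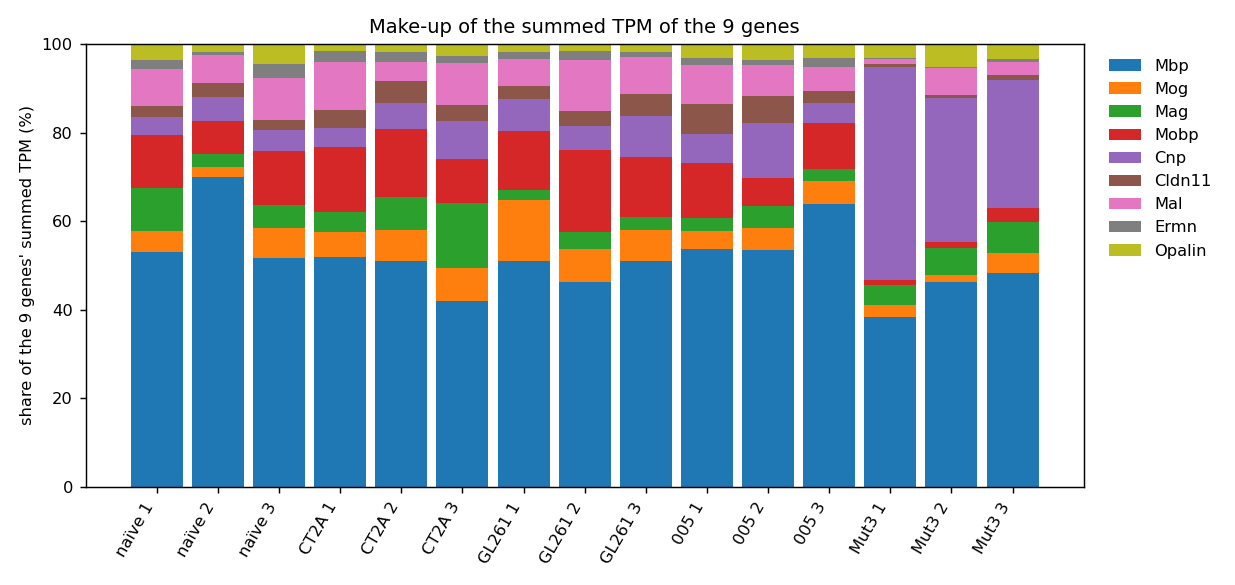
Share of each gene in the summed TPM of the 9 genes, in percent, 1 bar per sample. Cnp takes 28.9% to 48.1% in the 3 Mut3 bars and at most 12.4% in the others.

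Between tumor lines, genes were called where Mut3 was one of the pair. Of the 6 pairs of lines, edgeR called none of the 9 in CT2A against GL261 (7.77% of all genes in either direction), CT2A against 005 (4.11%) and GL261 against 005 (2.62%). At an unadjusted p under 0.05 these pairs had 2, 4 and 0 genes, DESeq2 called 2, 1 and 0, and limma on TPM called 0 in each. CT2A was above Mut3 for Cldn11 (2.29 ± 0.69, adjusted p = 0.0417) and below it for Cnp (-3.03 ± 0.66, adjusted p = 0.00735), where 12.8% of all genes were called in either direction. Each of the CT2A tumors was below each Mut3 tumor for Cnp and above each for Cldn11. The call of Cldn11 was lost in 7 of the 15 fits that left out 1 sample, and without CT2A replicate 1 the difference was 1.43 ± 0.67 (adjusted p = 0.202).

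GL261 was above Mut3 for 4 genes, where 17.2% of all genes were called in either direction. These were Mobp (4.14 ± 0.91, adjusted p = 0.00843), Cldn11 (3.44 ± 0.72, adjusted p = 0.00625), Ermn (3.77 ± 1.00, adjusted p = 0.0200) and Mog (2.94 ± 0.77, adjusted p = 0.0190). The comparison of 005 with Mut3, which has the Mut3 samples in common with it, called Mobp (3.86 ± 0.90), Cldn11 (3.71 ± 0.73), Ermn (4.19 ± 1.02) and Mog (2.33 ± 0.75) higher, where 19.8% of all genes were called. The 10 neuron genes were also all called higher in both comparisons, with medians of 3.59 for GL261 and 3.87 for 005. Their part in the result was not tested. Without naïve replicate 2, which enters the shared spread, Mog was not called between 005 and Mut3 (2.18 ± 0.75, adjusted p = 0.0564). Without Mut3 replicate 1, Mobp and Cldn11 were called in both comparisons, and Mog and Ermn in neither. On log2(TPM + 1), which understates changes at low levels, limma called 1 gene between GL261 and Mut3 and 0 between 005 and Mut3. Without 005 replicate 3, Mog and Ermn were no longer called there, Mobp was 2.02 ± 0.65 and Cldn11 2.84 ± 0.66, and Cnp was lower in 005 (-2.33 ± 0.59, adjusted p = 0.0153), where 16.1% of all genes were called. In that fit Mog was also higher in GL261 than in 005 (2.49 ± 0.52, adjusted p = 0.0122, 5.86% of all genes called), and Mog (-1.95 ± 0.43, adjusted p = 0.00927) and Cnp (-1.73 ± 0.50) were lower in CT2A than in GL261 (12.1%).

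The study classed GL261 and 005 as immune-active and CT2A and Mut3 as immune-inert. It based the classes on these same RNA sequencing data, so they are not independent of the libraries tested. Between these classes the active tumors had higher Mog (2.16 ± 0.53, adjusted p = 0.0123), Mobp (2.68 ± 0.60, adjusted p = 0.00865), Cldn11 (2.43 ± 0.48, adjusted p = 0.00484) and Ermn (2.62 ± 0.67, adjusted p = 0.0150), that is 4 of 9, where 12.6% of all genes were higher. They were the 4 genes that separated GL261 from Mut3, and in CT2A against GL261 none of them passed. The 10 neuron genes were all called higher in the active tumors as well, with a median of 2.52 against 1.62 for the 9 genes. Their part in the result was not tested. Cnp differed by 0.25 ± 0.43 between the classes, with Mut3 at 76.8 to 176 CPM and CT2A at 11.2 to 25.5 CPM on either side of GL261. Without 005 replicate 3, Mog was 1.16 ± 0.32, Mobp 1.74 ± 0.44, Cldn11 1.98 ± 0.44 and Ermn 1.45 ± 0.46, all 4 called (8.73% of all genes). Over the 5 groups together, 6 genes differed (Mog, Mobp, Cnp, Cldn11, Ermn and Opalin, adjusted p from 0.00492 to 0.0388), where 52.1% of all genes did.

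Other genes of the oligodendrocyte lineage divided by stage in Mut3. Of 19 tested genes of the mature cell, 13 were called lower and 1 higher (median -2.32). Of all genes tested, 19.8% were called lower in Mut3 and 17.9% higher. Of 5 enzymes of myelin lipids, Ugt8a (-4.02 ± 1.05), Gal3st1 (-2.75 ± 1.00) and Aspa (-3.29 ± 0.68) were lower and Cers2, a ceramide synthase, was higher (1.15 ± 0.31). Of 5 genes of junctions and paranodes, 4 were lower, and Gjc3 was higher (4.80 ± 0.76).

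Genes of the precursor stages stood higher in Mut3, with 5 of 9 called higher and none lower (median 1.74), against 17.9% and 19.8% of all genes. Gpr17, a receptor of committed precursors, had 183, 56.1 and 125 CPM in Mut3 and 5.10, 12.2 and 4.60 CPM in naïve brain (4.06 ± 0.57, adjusted p = 3.36e-04). Cspg4, the NG2 proteoglycan, rose by 3.67 ± 0.47, Neu4 by 3.99 ± 0.88, Tnr by 2.97 ± 0.69 and Bcas1 by 1.74 ± 0.65. Pdgfra, the growth factor receptor of precursors, did not pass (0.89 ± 0.35, adjusted p = 0.0563). Of 9 lineage transcription factors, Olig2 (3.96 ± 0.51), Olig1 (2.32 ± 0.66), Nkx2-2 (3.64 ± 0.51) and Sox8 (3.31 ± 0.47) were higher and Nkx6-2 was lower (-2.02 ± 0.65). Olig2 was at 207, 124 and 316 CPM in Mut3 and at 9.996, 20.9 and 10.5 CPM in naïve brain. Sox10 (0.33 ± 0.59) and Myrf (-0.61 ± 0.80), an activator of myelin genes, did not pass. Without naïve replicate 2, 6 of the mature-cell genes were lower and 2 higher, 6 of the precursor genes were higher and none lower, and 4 of the transcription factors were higher and none lower. Of the junction and paranode genes 1 was then lower and 1 higher, and of the lipid enzymes 2 were lower and 1 higher. In that fit 14.8% of all genes were called lower and 17.4% higher.

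In CT2A, 6 of 9 precursor genes were lower, while Pdgfra (1.52 ± 0.36) and Cspg4 (1.42) were higher. Of all genes tested in CT2A, 20.2% were called lower and 19.0% higher. Olig2 had 6.11, 2.17 and 2.20 CPM there (-1.97 ± 0.50, adjusted p = 0.00721), Sox10 fell by 2.29 ± 0.64 and Olig1 by 2.20 ± 0.68, and Nkx2-2 was higher (1.99). Of the mature-cell genes, 5 of 19 were lower, against 20.2% of all genes tested, and Klk6, a secreted protease, was higher (1.65). These counts rested on naïve replicate 2. Without it, 1 mature-cell gene was lower and 3 were higher, 2 precursor genes were lower and 2 higher, and 1 transcription factor was lower and 1 higher. In that fit 12.4% of all genes were called lower. The share called higher is not given for it, so the counts of higher genes cannot be set against one.

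In GL261, 4 of 9 lineage transcription factors were higher, with Sox10 at 59.3, 39.6 and 60.5 CPM against 5.30, 15.2 and 4.60 CPM in naïve brain (2.67 ± 0.61, adjusted p = 0.00793). Olig2 (1.39 ± 0.47), Nkx2-2 (2.17 ± 0.50) and Zfp488 (2.60 ± 0.89) were also higher and Sox8 was lower (-1.33 ± 0.46). None of the precursor genes was called in GL261, where 14.6% of all genes were called higher and 7.77% lower. Without naïve replicate 2, 5 of the transcription factors were higher and none lower, so that Sox8 was no longer called, and 2 of the precursor genes were higher. The shares of all genes called are not given for that fit, so these counts cannot be set against them. In the fit of all samples, Klk6 (3.08 ± 0.56), Apod (2.07 ± 0.49), an apolipoprotein, and Trf (1.41 ± 0.39), transferrin, were the 3 mature-cell genes called higher, and none was lower. In 005, Nkx2-2 (1.77), Klk6 (2.21) and Cers2 (1.84) were higher and no gene of these lists was lower. Of all genes tested, 11.6% were called higher in 005 and 1.05% lower. Without 005 replicate 3, 7 mature-cell genes and 3 precursor genes were lower in 005, where 18.1% of all genes were.

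**Figure D4:**
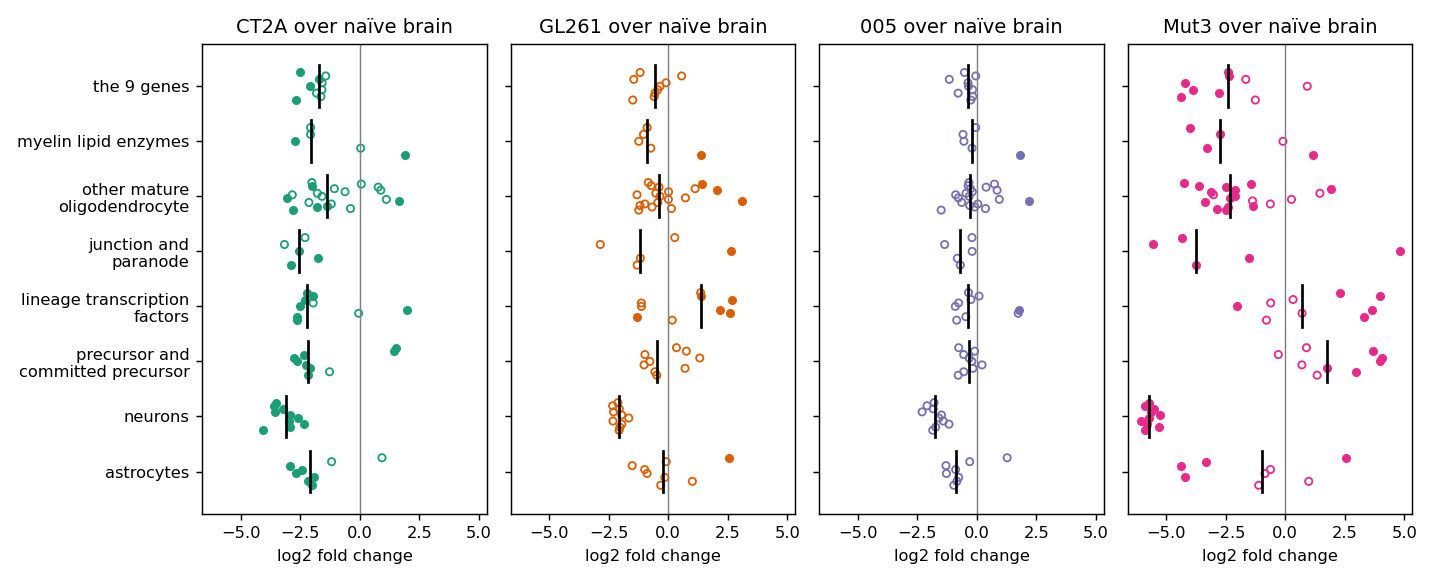
Log2 fold change over naïve brain of each tested gene, by gene list, 1 panel per tumor line, with filled points for called genes and a black bar at each list's median. In Mut3 the precursor genes have a median of 1.74 while the 9 genes have one of -2.42 and the neuron genes one of -5.73.

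Across the 15 samples the genes varied together except for Cnp. The log2 CPM of Mbp had a Pearson correlation of 0.96 with the mean z-score of the other 8 genes, Mal 0.93, Mog 0.87, Mobp 0.86, Ermn 0.84, Opalin 0.80, Cldn11 0.79 and Mag 0.75, and Cnp 0.25. These values describe 15 samples that share tumor lines and normalization. Over the 11 tumors other than 005 replicate 3, Cnp had -0.01, Mag 0.47, Opalin 0.52 and Cldn11 0.68. Ermn had 0.75 there, Mobp 0.80, Mog 0.85, Mal 0.91 and Mbp 0.94. Of 8928 genes with a mean log2 CPM of at least 3, the 10 most like the mean of the 9 included Rora, Nat8l, Kcnc1, Gabbr2, Gabbr1, Sv2a, Glrb, Sept4 and Tubb4a, with r from 0.94 to 0.96. Gabbr1 and Gabbr2 encode receptor subunits for GABA and Sv2a is a synaptic vesicle protein, while Sept4 stood in the list of mature oligodendrocyte genes.

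The levels of myelin and neuron transcripts could be set side by side in each sample. The 9 genes summed to 158 to 820 TPM in naïve brain, 15.6 to 87.1 in CT2A, 95.8 to 141 in GL261, 38.3 to 542 in 005 and 36.8 to 77.9 in Mut3. Divided by the sum of the 10 neuron genes, this gave 0.0996 to 0.543 in naïve brain and 0.351 to 0.474 in CT2A. The ratio was 0.431 to 0.704 in GL261 and 0.412 to 0.886 in 005, and these ranges overlapped. The overlap of naïve brain with the tumors came from naïve replicate 2, at 0.543. The other naïve brains, at 0.128 and 0.0996, lay below each tumor. In Mut3 the ratio was 1.73 to 4.76, above each other sample.

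**Figure D5:**
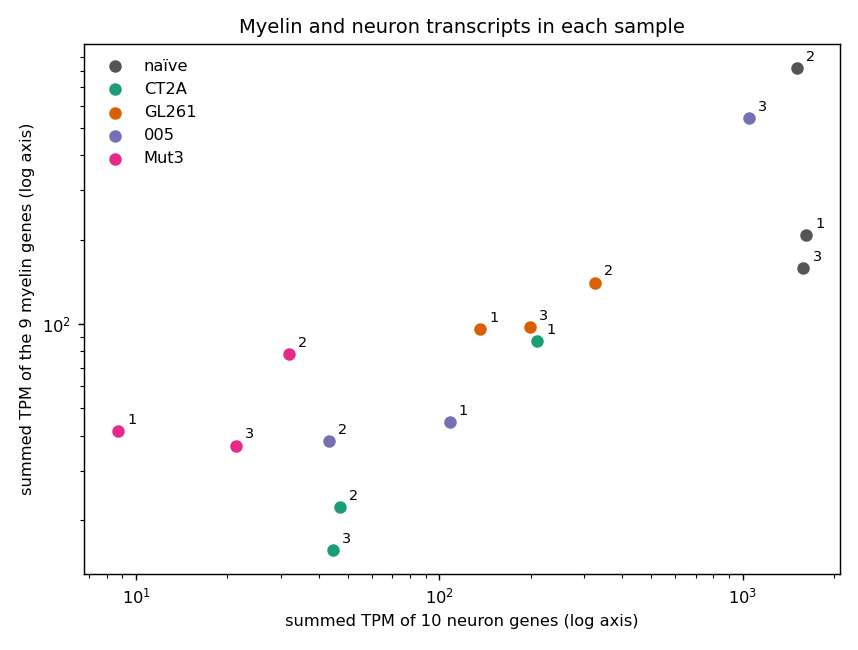
Summed TPM of the 9 myelin genes against that of 10 neuron genes (both axes log), 1 point per sample labelled by its replicate number. Replicate 3 of 005 lies beside the naïve brains at 1050 TPM of neuron genes, and the Mut3 tumors lie farthest left.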

How the data were processed

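RNA from 15 samples (5 groups, 3 mice each, separate animals) was sequenced. The authors aligned reads with STAR v2.4.2a, and the submitters' processing notes name Salmon, DESeq2 1.18.1 and the mm10 build. The annotation release and the strand setting are not given in the sources used here. The authors deposited estimated counts per gene, which need not be whole, and TPM, which is scaled to gene length and library. Of 46679 gene identifiers, 46201 carried a symbol in GENCODE M21.

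The estimated counts were rounded and tested with edgeR 4.0.16 (R 4.3.3): TMM normalization, filterByExpr, 1 quasi-likelihood fit over all samples and Benjamini-Hochberg adjustment over the 17481 genes tested. Calls needed an adjusted p below 0.05 and a change of 1 or more, up or down, on the log2 scale. CPM is TMM-normalized, and SE is the fold change divided by the square root of F. Counting error alone allows up to 0.228 to 0.966 CPM for a count of 0 (3 counts). Alternatives were DESeq2 1.42.0, limma 3.58.1 on log2(TPM + 1), other scalings and filters, a replicate block and leaving samples out. In simulated data for CT2A against naïve brain (16931 genes), 42.5% of 160 genes changed 4-fold or more were called, and 2 of 70 called genes were unchanged. Only 200 genes were changed there. In the real comparison 20.2% of all genes were called lower and 19.0% higher, so these rates do not carry over to it.

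All 9 genes were named, and from each list the 2 tested genes with the largest and the 2 with the smallest mean change over the tumors, any oligodendrocyte gene called higher in a tumor, 5 set genes of the lineage and the 10 genes most like the 9 could be named. Aqp4, Gjb6, Ncmap, Prx and Snap25 lie outside that rule and were named after their values were seen. The 9 genes, the lists and this rule were chosen with earlier results of these data known. Some genes of the lists are not reported here.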

Additional observations from a re-analysis of the deposited data

Results flagged for a closer look

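The change from naïve brain differed between tumor lines, by the test of the pair of lines itself (edgeR's quasi-likelihood test, n = 3 per group), for these genes. Between CT2A and Mut3 the log2 difference was -3.03 for Cnp and 2.29 for Cldn11. Between GL261 and Mut3 it was 2.94 for Mog, 4.14 for Mobp, 3.44 for Cldn11 and 3.77 for Ermn. Between 005 and Mut3 it was 2.33 for Mog, 3.86 for Mobp, 3.71 for Cldn11 and 4.19 for Ermn. All 10 involve Mut3, whose samples they share. Calls were lost when single samples were left out, those of Mog and Ermn in 005 without 005 replicate 3, that of Mog in 005 without naïve replicate 2, that of Cldn11 in CT2A without CT2A replicate 1, and those of Mog and Ermn in GL261 and in 005 without Mut3 replicate 1. Other single samples also ended the calls of Cldn11 in CT2A, Mog in 005, and Mog and Ermn in GL261.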

How the results depend on the processing

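The number of the 9 genes called depended on single samples. The shares of all genes called are not given beside the counts here. These counts thus show how the calls moved, not whether the 9 genes differed from other genes. Leaving out 1 sample at a time gave 0 to 8 in CT2A against naïve brain, 0 to 2 in GL261, 0 to 6 in 005 and 3 to 8 in Mut3, 0 to 2 between CT2A and GL261, 0 to 1 between CT2A and 005, 1 to 5 between CT2A and Mut3, 0 to 1 between GL261 and 005, 2 to 4 between GL261 and Mut3, 2 to 4 between 005 and Mut3, 4 to 6 between the immune classes and 3 to 9 over the 5 groups. The highest counts against naïve brain came without 005 replicate 3, and without Mut3 replicate 1 the counts were 3 in Mut3 against naïve brain, 2 against GL261, 2 against 005 and 3 over the groups. CT2A against 005 had 1 without 005 replicate 1 or 2, and CT2A against Mut3 had 4 without 005 replicate 2, 5 without 005 replicate 3, and 1 without CT2A replicate 1 or 2, GL261 replicate 2 or 3, or any of the Mut3 tumors. Limma on log2(TPM + 1) called 9 in CT2A against naïve brain, 2 in GL261, 1 in 005, 1 between CT2A and Mut3, 1 between GL261 and Mut3, 0 between 005 and Mut3 and 2 between the classes. Fitting only the groups compared gave 2 in GL261 against naïve brain, 2 between CT2A and GL261, 4 between CT2A and Mut3 and 1 between 005 and Mut3. DESeq2 gave 2 between CT2A and GL261, 1 between CT2A and 005 and 4 between CT2A and Mut3, no filter on low counts gave 1 between CT2A and 005 and 4 between CT2A and Mut3, and library size in place of TMM gave 1 between CT2A and Mut3. A filter of 10 counts in every sample, or no threshold on the fold change, moved none of the counts by over 1.5 times. Replicate numbers did not pair samples: of 30 same-numbered pairs 1 had a correlation over 0.1, and 2 of 15 samples were closest to their own number. With the replicate block, the count was 2 in CT2A against naïve brain (Mbp and Mag lost) and 1 between CT2A and Mut3 (Cldn11 lost), and Mbp in Mut3 against naïve brain and Mog between 005 and Mut3 also lost their calls. Leaving out pairs of samples was added after seeing the data. Without 005 replicate 3 and naïve replicate 2, the counts were 3 in 005 against naïve brain, 2 between CT2A and GL261, 4 between CT2A and Mut3 and 1 between GL261 and 005. Without 005 replicate 3 and CT2A replicate 1, which was picked for its high levels of these genes and so tends to raise the count in CT2A, they were 9 in CT2A against naïve brain, 2 in GL261, 8 in 005, 8 between CT2A and GL261 and 2 between GL261 and 005. The direction turned for uncalled changes in GL261 and 005 against naïve brain. In GL261, leaving out 1 sample gave -0.45 to 0.42 for Mobp, -0.65 to 0.71 for Cnp, -0.78 to 0.72 for Cldn11 and -1.04 to 0.035 for Mal. In 005 it gave -2.52 to 0.51 for Mbp, -2.02 to 0.42 for Mog, -2.23 to 0.14 for Mobp, -1.43 to 0.61 for Cnp, -1.06 to 0.91 for Cldn11, -2.46 to 0.34 for Ermn and -1.96 to 0.19 for Opalin. In GL261, Mog was -0.32 with limma, Mobp was 0.034 with only the groups compared, and Mobp was 0.34, Cnp 0.64 and Cldn11 0.65 without 005 replicate 3 and naïve replicate 2. In 005, Mog was 0.0249 without the filter and 0.013 with only the groups compared, and Cldn11 was 0.16 without that pair of samples. Of single-gene values under the alternatives, 1019 kept direction and side of the threshold, 64 passed it anew, 84 lost it and 33 turned. Beyond the samples left out, the cause was not tested. Levels near the limit that a count of 0 allows cannot be ranked at this depth.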

Other observations

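Genes of other cells were read from the same fits against naïve brain, with the shares of all genes called given above for each line. Of 8 astrocyte genes, 6 were called lower in CT2A, among them Slc1a2, a glutamate transporter (-2.92), 1 was higher in GL261 (Gfap, 2.56), none was called in 005, and in Mut3 Slc1a2 (-4.39), Aqp4 and Gjb6 were lower and Gfap was higher (2.57). Of 6 microglia genes, 2 were lower in CT2A and 4 in Mut3, among them P2ry12 (-3.61), a purine receptor of resting microglia, while 1 was higher in GL261 and none was called in 005. The 5 proliferation genes were higher in each line (medians of 4.40 to 4.95). Of 4 tested leukocyte genes, 4 were higher in CT2A, GL261 and 005, and in Mut3 1 was lower.

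Of the genes of peripheral myelin, made by Schwann cells, Prx and Ncmap did not pass the filter. Pmp22, which other cells also express, was higher in Mut3 (1.99), and Egr2 was lower in CT2A (-2.71) and Mut3 (-1.62). Of 3 tested genes of striatal neurons, 2 were lower in CT2A and 2 in Mut3, and of 2 tested genes of the cerebellar list, 1 was lower in CT2A and 2 in Mut3; none of either was called in GL261 or 005. Ppp1r1b, of the striatal list, had 188 CPM in naïve replicate 2 against 33.3 and 64.6 in the other naïve brains, and that replicate also had the highest Mbp. Drd1 and Rgs9 were higher there too, by smaller margins.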
